A study of Mus musculus with 9 samples.

Results

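Levels of 6 genes that encode regulators of messenger RNA decay were compared in 3T3 fibroblasts. The cells were controls with or without TNF-α, or TNF-treated cells with a knockdown against the ATPases of the chromatin remodelling complex BAF. Some of these regulators are widely studied as brakes on cytokine production. The 6 genes were Zfp36, Zfp36l1, Zfp36l2, Zc3h12a, Btg1 and Btg2, a list set by name with earlier results of these data known. They make 6 of the 19698 genes measured. Each had a single transcript cluster (the set of probes that reports 1 transcript) annotated with its symbol alone. 3T3 is an immortalised mouse embryonic fibroblast line. RNA levels were measured on Affymetrix mouse Gene 1.0 ST arrays, 9 in all, in 3 groups of 3. BAF-knockdown cells received 5 ng per ml of mouse TNF-α for 1 h, control cells received the same treatment, and further control cells were left unstimulated. The knockdown cells were a stable population, transduced with a retroviral vector and sorted for high GFP, that expressed 1 short hairpin RNA from a U6 promoter against a sequence shared by Brg1 and Brm, the ATPases of BAF (genes Smarca4 and Smarca2). Unstimulated knockdown cells were not analysed here, so a TNF response within the knockdown line could not be computed. Replicates were made on different days, and arrays with the same number (1, 2 or 3) were treated as pairs in a second, blocked fit.

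Messenger RNAs of cytokines and growth regulators are made in short bursts and are removed quickly. The tandem zinc finger proteins encoded by Zfp36 (tristetraprolin), Zfp36l1 and Zfp36l2 bind AU-rich elements in the untranslated region of such mRNAs and recruit the CCR4-NOT complex, which shortens the poly(A) tail. Zc3h12a encodes Regnase-1, an endonuclease that cuts mRNAs at stem-loops. Btg1 and Btg2 encode antiproliferative proteins that bind the catalytic deadenylases of CCR4-NOT and speed up tail shortening. In fibroblasts and macrophages several of these genes are themselves switched on early by the inflammatory signal whose products they remove, which makes them feedback regulators.

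The promoters of these genes are shown because BAF acts on promoter nucleosomes and because the TNF response differed among the genes. A relation between promoter elements and the response was not tested. The 250 bases before the annotated start were read from RefSeq for the 5 genes that had an entry (build GRCm38.p6, all written 5′ to 3′ on the gene's own strand). Btg2 (chr1:134079156-134079405, minus strand), Zc3h12a (chr4:125127882-125128131, minus strand) and Zfp36 (chr7:28379229-28379478, minus strand) had the 3 largest differences after TNF. Btg1 (chr10:96616751-96617000, plus strand) had the smallest. Capitals mark matches, on either strand, to the CRE (TGACGTCA), the AP-1 site (TGACTCA), the TATA box (TATAAA), the CCAAT box (CCAAT), the NF-kB consensus or the CArG box.
Btg2: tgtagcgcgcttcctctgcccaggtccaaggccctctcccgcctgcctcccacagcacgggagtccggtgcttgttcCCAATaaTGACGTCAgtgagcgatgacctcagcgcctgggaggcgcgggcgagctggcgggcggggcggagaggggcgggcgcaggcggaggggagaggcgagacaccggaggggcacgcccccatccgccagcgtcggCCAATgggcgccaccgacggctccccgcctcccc
Zc3h12a: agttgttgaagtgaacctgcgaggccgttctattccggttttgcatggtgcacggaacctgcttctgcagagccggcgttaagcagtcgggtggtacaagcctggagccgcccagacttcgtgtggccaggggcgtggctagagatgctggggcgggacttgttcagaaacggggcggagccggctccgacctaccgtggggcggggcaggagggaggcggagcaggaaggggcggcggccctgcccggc
Zfp36: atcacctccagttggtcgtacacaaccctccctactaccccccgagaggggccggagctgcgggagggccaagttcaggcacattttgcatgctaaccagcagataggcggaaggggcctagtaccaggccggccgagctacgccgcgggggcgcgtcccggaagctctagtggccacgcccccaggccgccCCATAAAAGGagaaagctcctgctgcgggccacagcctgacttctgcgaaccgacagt
Btg1: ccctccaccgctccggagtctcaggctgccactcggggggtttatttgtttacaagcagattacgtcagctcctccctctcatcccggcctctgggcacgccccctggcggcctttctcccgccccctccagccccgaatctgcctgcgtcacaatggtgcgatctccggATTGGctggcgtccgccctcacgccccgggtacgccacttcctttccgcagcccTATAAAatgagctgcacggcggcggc

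Btg2 held the full CRE, the element of cAMP- and stress-responsive factors, 166 to 159 bases before its start, beside 1 of its 2 CCAAT boxes. That element was found in 1.55% of 32851 RefSeq promoters of the same length. The CRE half-site (TGACG, not capitalised by itself) was found in 17.8% of promoters. Btg1 held 2 half-sites, 187 to 183 and 103 to 99 bases before its start, and in Btg2 it occurred only within the CRE. Zfp36 held the CArG box, the element of serum response factor, 58 to 49 bases before its start, found in 1.47% of promoters. Btg1 held a TATA box 26 to 21 bases before its start and a CCAAT box 80 to 76 bases before it, present in 12.4% and 33.8% of promoters. Zfp36l1, not printed, held a TATA box 29 to 24 bases before its start that shared 1 base with a CCAAT box. Zc3h12a held none of the marked elements but 5 GC boxes (GGGCGG, in 32.7% of promoters), against 3 in Btg2, where a pair of them shared 1 base, 2 in Btg1 and 1 in Zfp36, which shared 1 base with the CArG box. Neither the NF-kB consensus (3.9% of promoters) nor the AP-1 site (4.46%) was matched in the 5 windows. Sequence outside these windows was not examined. Zfp36, Zc3h12a, Btg1 and Btg2 were GC-rich (64.8% to 73.2%, against a median of 52.4% over all promoters), whereas Zfp36l1 had 48.4%. The ratio of observed to expected CpG lay between 0.69 and 1.01 in the 5 promoters, against a median of 0.37.

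The knockdown lowered Smarca4. Its level (RMA log2 signal, as for all levels below) was 10.50, 10.64 and 10.25 on knockdown arrays 1, 2 and 3, against 11.62, 11.53 and 11.56 on TNF-treated control arrays (difference -1.11 ± 0.09, standard error, limma adjusted p = 0.00362). Smarca2 was at 9.12, 9.38 and 9.12 in the knockdown and at 9.51, 9.81 and 9.39 in TNF-treated controls, and did not pass the test (difference -0.36 ± 0.20, adjusted p = 0.734, blocked 0.129). Its groups did not overlap, as for 5.47% of all genes with the knockdown lower, and the pairs of arrays differed by -0.39, -0.43 and -0.26. By quantitative RT-PCR, the paper measured lower levels of both transcripts in knockdown cells. Of 9 fibroblast markers, 8 lay above the third quartile of all genes, and 0 of 8 leukocyte and 0 of 9 epithelial and endothelial markers did. The mean level of the fibroblast markers was 11.39 to 11.61 on knockdown arrays, against 11.73 to 12.02 on TNF-treated control arrays and 11.83 to 12.08 on unstimulated arrays. All 9 were lower in the knockdown, 0 of them called by limma (3 at an unadjusted p under 0.05) and 3 called in the blocked fit, against 8.43% of all genes in either direction by unadjusted p and 2.33% called lower with the block. The part of this shift in the differences below was not tested. In bulk RNA, fewer cells expressing a gene and less RNA per cell cannot be told apart.

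After 1 h of TNF, Zfp36l2 rose in control cells, Btg2 rose in the blocked fit, Zfp36 and Zc3h12a were higher on every array without passing the test, and Zfp36l1 and Btg1 overlapped between the groups. Genes with an adjusted p under 0.05, adjusted over all 19698 genes, are termed called. By that rule 1 of the 6 regulators was called higher and 0 lower in the main fit, against 0.137% of all genes called higher. The blocked fit called 2 higher, against 0.366% of all genes, and at an unadjusted p under 0.05 there were 4, against 1.85%. The methods' own limit, a difference over 0.35 with an unadjusted p under 0.05, was passed by 3 of the 6 and by 0.543% of all genes. The paper lists a public array series for gene activation in TNF-treated fibroblasts, so that limit was applied here to other arrays. The median difference of the 6 genes was 0.59, against -0.0020 over all genes. For 4 of the 6 the TNF-treated and unstimulated arrays did not overlap, all with TNF higher, against 3.19% of all genes. The 6 genes were chosen with earlier results of these data known, so these counts describe them and are no independent test.

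**Figure D1:**
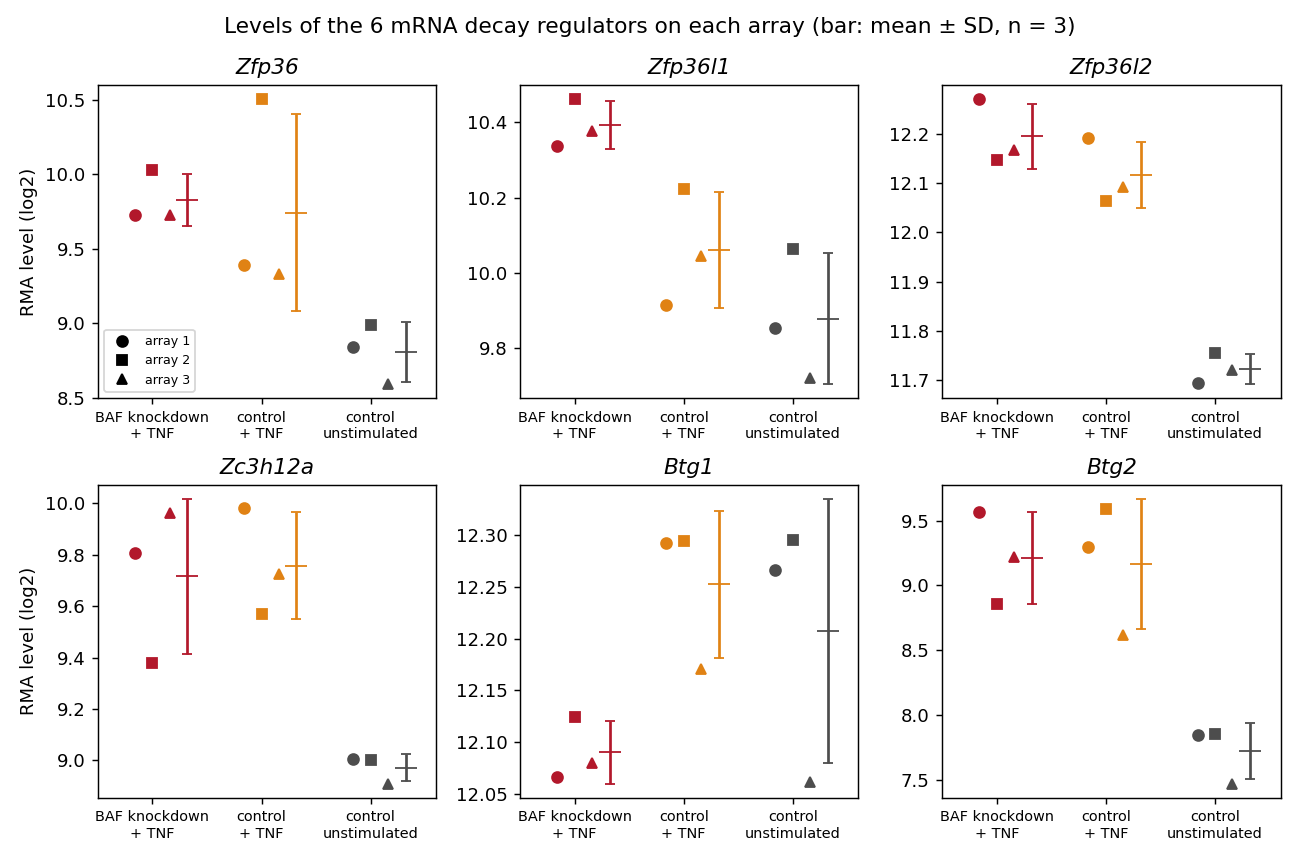
RMA log2 level (y axis, scaled separately in each panel and not starting at 0) of the 6 genes on each array, for TNF-treated BAF-knockdown, TNF-treated control and unstimulated control cells (x axis), with a bar at the mean ± SD (n = 3) and one symbol shape per array number. For Btg2 the unstimulated arrays lie between 7.47 and 7.85 and all TNF-treated arrays above 8.60, whereas for Btg1 the TNF-treated and unstimulated controls overlap and the knockdown arrays lie below the TNF-treated controls.

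Among the zinc finger proteins, Zfp36l2 (transcript cluster 10453272) stood at 12.19, 12.06 and 12.09 on TNF-treated arrays 1, 2 and 3, against 11.69, 11.75 and 11.72 on unstimulated arrays. The groups did not overlap, and arrays of 1 group lay close together. The rise was 1.31-fold (difference 0.39 ± 0.05, limma adjusted p = 0.0412, blocked 0.0337). This call was narrow. It was lost when any 1 array other than knockdown array 1 was left out (adjusted p of 0.0628 to 0.242) and when the knockdown arrays were not used in the fit (0.124), while the difference stayed between 0.36 and 0.42. Zfp36 (10561453) stood at 9.39, 10.50 and 9.33 after TNF, against 8.84, 8.99 and 8.60 without it. TNF-treated array 2 was more than 1 log2 unit above the other TNF-treated arrays. The difference was 0.93 ± 0.28 (1.91-fold, interval 1.23 to 2.97, adjusted p = 1, blocked 0.127). Without that array the difference was 0.55 and still did not pass the test (adjusted p = 0.578). Zfp36l1 (10401238) stood at 9.92, 10.22 and 10.05 after TNF, against 9.85, 10.06 and 9.72 without it. These groups overlapped, with a difference of 0.18 ± 0.10 and a 95% interval of -0.05 to 0.41 (adjusted p = 1, blocked 0.777).

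Zc3h12a (10516266), the endonuclease gene, stood at 9.98, 9.57 and 9.72 on TNF-treated arrays, against 9.005, 9.002 and 8.910 on unstimulated arrays. The groups lay more than 0.5 apart, and the difference of 0.79 ± 0.15 corresponded to 1.72-fold (interval 1.36 to 2.18). It missed the threshold after adjustment in both fits (adjusted p = 0.217, blocked 0.0503).

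Btg2 (10357875) had the largest TNF difference of the 6 genes. It stood at 9.30, 9.59 and 8.61 on TNF-treated arrays, against 7.84, 7.85 and 7.47 on unstimulated arrays. Array 3 was the lowest of its group in both conditions, and within array numbers the difference was 1.46, 1.74 and 1.14. The fitted difference of 1.45 ± 0.26, or 2.73-fold (interval 1.82 to 4.09), was not called in the main fit (limma adjusted p = 0.162) and was called in the blocked fit (0.0437). In the blocked fit without the arrays numbered 1, 2 or 3 the adjusted p was 1, 0.00984 and 0.246. Btg1 (10365971), its close relative, stood at 12.29, 12.29 and 12.17 after TNF, against 12.27, 12.30 and 12.06 without it. The groups overlapped almost completely, and the difference was 0.04 ± 0.07 with a 95% interval of -0.11 to 0.20 (adjusted p = 1 in both fits).

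**Figure D2:**
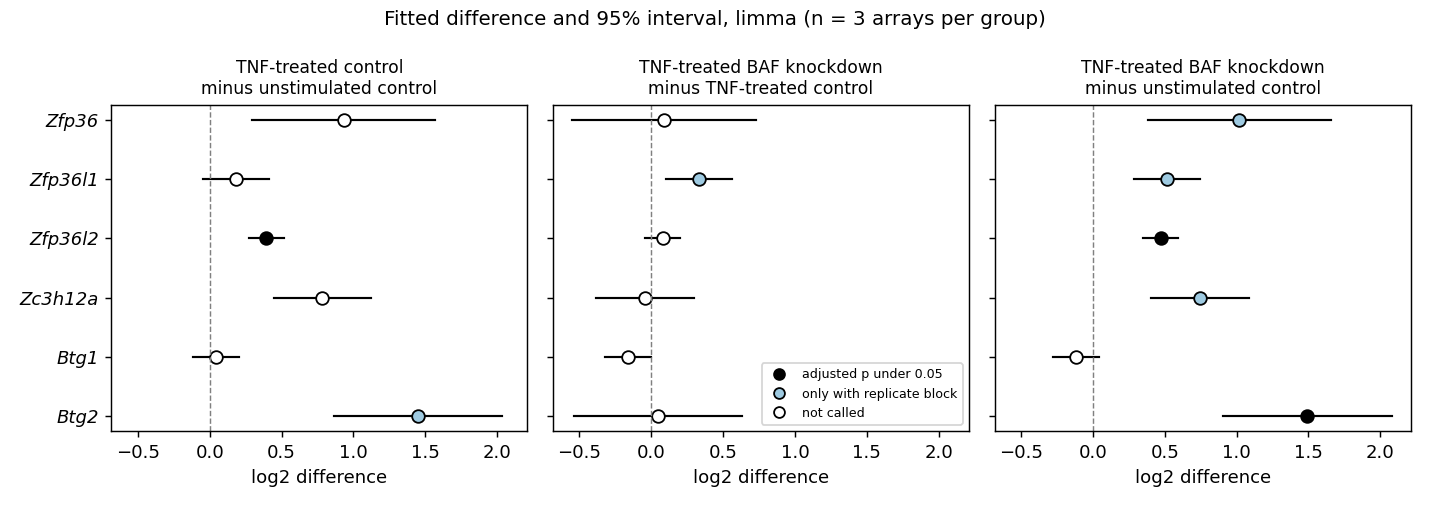
Fitted log2 difference (x axis) with its 95% interval from limma for the 6 genes (y axis) in the 3 comparisons, n = 3 arrays per group. Filled black points were called in the main fit (Zfp36l2 after TNF, Zfp36l2 and Btg2 in knockdown against unstimulated cells), blue points in the blocked fit but not the main fit, and white points in neither.

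With BAF knockdown, Zfp36l1 rose in the blocked fit, Btg1 was lower on every array without passing the test, and the other 4 regulators overlapped between the groups. In the main fit 0 of the 6 were called, against 0.137% of all genes called in either direction. At an unadjusted p under 0.05, 1 was higher and 1 lower, against 8.43% of all genes in either direction. The blocked fit called 1 gene higher, Zfp36l1, against 0.98% of all genes, and 0 lower. A difference over 0.3, the methods' limit for genes inhibited by BAF, was reached by 1 of the 6, against 1.87% of all genes. The median difference of the 6 was 0.06, against 0.0088 over all genes.

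Zfp36l1 stood at 10.34, 10.46 and 10.38 on knockdown arrays, against 9.92, 10.22 and 10.05 on TNF-treated control arrays. Every knockdown array lay above every control array, as for 4.63% of all genes, and the pairs of arrays differed by 0.42, 0.24 and 0.33. The difference of 0.33 ± 0.10 (1.26-fold, interval 1.07 to 1.47) passed the test only in the blocked fit (limma adjusted p = 0.338, blocked 0.0411). Leaving out the arrays of number 1, 2 or 3 from the blocked fit gave adjusted p of 0.457, 0.0743 and 0.165. Btg1 stood at 12.07, 12.12 and 12.08 on knockdown arrays, against 12.29, 12.29 and 12.17 on TNF-treated control arrays. The groups did not overlap, as for 5.47% of all genes with the knockdown lower, and the pairs differed by -0.23, -0.17 and -0.09. The difference of -0.16 ± 0.07, 1.12-fold lower, was not called in either fit (adjusted p = 0.571, blocked 0.233).

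Among the other 4, Zfp36l2 stood at 12.27, 12.15 and 12.17 in the knockdown, against the 12.06 to 12.19 given above for controls. Its pairs differed by 0.08 each, and the 95% interval of the difference ran from -0.04 to 0.20 (adjusted p = 0.818). Zfp36 stood at 9.73, 10.03 and 9.73 in the knockdown, less spread than the TNF-treated controls, with a mean of 9.83 ± 0.17 in the knockdown and 9.74 ± 0.66 in controls (SD, n = 3 each). Its interval, -0.55 to 0.73, was wide, and its pairs differed by 0.34, -0.48 and 0.40. Btg2 stood at 9.56, 8.86 and 9.22 in the knockdown, with pair differences of 0.26, -0.73 and 0.61 and an interval of -0.54 to 0.63. Pair 2 thus ran against pairs 1 and 3 for both Zfp36 and Btg2, and TNF-treated control array 2 was the highest of its group for each. For Btg2, knockdown array 2 was also the lowest of its group. Zc3h12a stood at 9.80, 9.38 and 9.96 in the knockdown, a difference of -0.04 ± 0.15 with an interval of -0.38 to 0.30. A rise of the size seen for Zfp36l1 (0.33) lay inside the intervals of Zfp36 and Btg2 and outside those of Zfp36l2 and Zc3h12a.

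**Figure D3:**
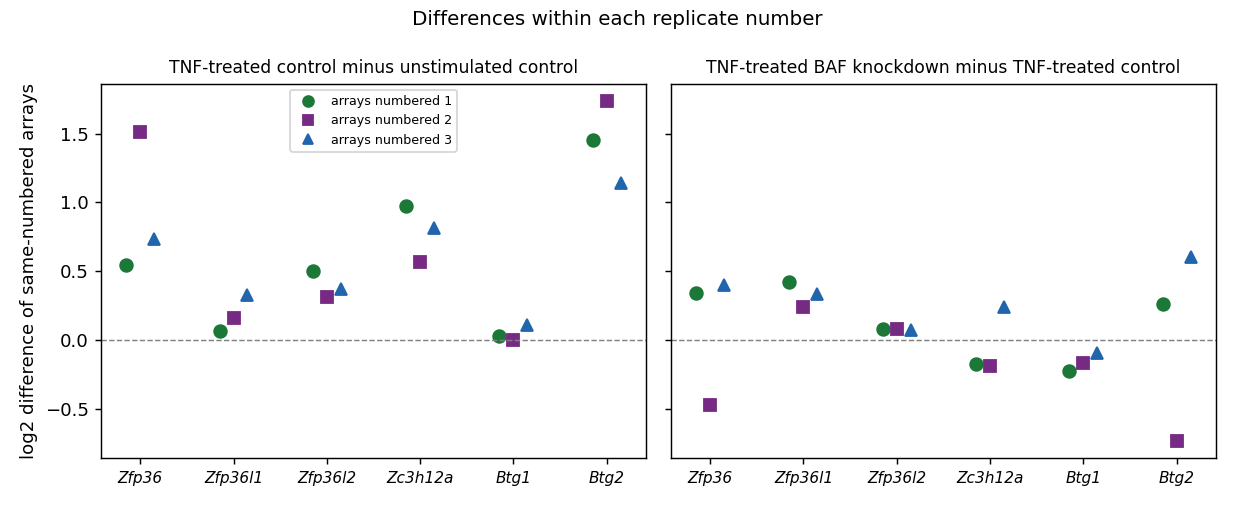
Log2 difference between arrays of the same number (y axis) for the 6 genes (x axis), TNF-treated minus unstimulated control on the left and TNF-treated knockdown minus TNF-treated control on the right, with 1 point per array number. After TNF, 5 of the 6 genes were higher in all 3 pairs. With the knockdown, Zfp36l1 and Zfp36l2 were higher in all 3 pairs, Btg1 was lower in all 3, and pair 2 of Zfp36 and Btg2 lay at -0.48 and -0.73.

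TNF-treated knockdown cells, set beside unstimulated controls, held 5 of the 6 regulators above the unstimulated level on every array, as for 7.01% of all genes. This comparison shares its arrays with the others and combines TNF and knockdown, so its values are only placed next to them. The main fit called 2 higher, against 0.518% of all genes, and the blocked fit 5, against 1.98%. The called genes were Zfp36l2 (difference 0.47 ± 0.05, limma adjusted p = 0.00967) and Btg2 (1.49 ± 0.26, 0.037). Zfp36l2 lost its call without unstimulated array 1 (adjusted p = 0.0656). Btg2 lost it when any 1 of the unstimulated arrays, TNF-treated control array 1, or knockdown array 1 or 3 was left out (0.0755 to 0.148). Both lost it when the fit held only these 2 groups (0.0507 and 0.0692). Zfp36 (1.02 ± 0.28), Zc3h12a (0.74 ± 0.15) and Zfp36l1 (0.51 ± 0.10) were called with the block and not in the main fit (blocked adjusted p of 0.017, 0.0124 and 0.0049, main 0.165, 0.062 and 0.0588). Without the arrays numbered 1 or 3 the blocked fit called 0 of the 6, and without those numbered 2 it called 5. For Zfp36l1 the difference from unstimulated cells was 0.51 in the knockdown and 0.18 in TNF-treated controls. Btg1 differed by -0.12 ± 0.07 (adjusted p = 0.559).

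Ordered by mean level, Zfp36, Zfp36l1, Zfp36l2 and Btg2 were highest in TNF-treated knockdown cells, then in TNF-treated controls, and lowest in unstimulated controls. Of the neighbours in that order, the knockdown and the TNF-treated control overlapped for Zfp36, Zfp36l2 and Btg2, and the TNF-treated and unstimulated controls overlapped for Zfp36l1. Zc3h12a was at 9.71 ± 0.30 in knockdown cells, 9.76 ± 0.21 in TNF-treated controls and 8.97 ± 0.05 in unstimulated controls (SD, n = 3 each). Btg1 alone had its lowest mean in the knockdown, 12.09 ± 0.03, against 12.25 ± 0.07 in TNF-treated and 12.21 ± 0.13 in unstimulated controls.

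Genes listed for the decay machinery, other regulators of mRNA stability and the p38-MK2 arm were not called after TNF or with the knockdown. The shares called over all genes were low too, so these counts do not set the list apart. Of 79 genes listed for CCR4-NOT and deadenylation, decapping, the RNA exosome, other regulators of mRNA stability and the p38-MK2 arm, 73 were measured. After TNF 0 of them were called by limma in either fit, against 0.137% of all genes in either direction in the main fit and 0.396% with the block, and 3 genes were higher and 2 lower by unadjusted p (3.07% of all genes in either direction). With the knockdown 0 were called in either fit, against 0.137% and 3.31% of all genes. By unadjusted p, 1 gene was higher and 2 lower (8.43% of all genes in either direction). The methods' t-test called 0 after adjustment in each comparison. The median difference of the 73 genes was -0.02 after TNF and 0.02 with the knockdown.

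In the CCR4-NOT and deadenylation list (18 measured) the largest TNF differences were those of Tob1, a relative of the Btg proteins (-0.16 ± 0.09), and Btg4 (0.10 ± 0.06). Among 16 decapping and 5-prime decay genes they were those of Lsm2, a decapping activator subunit (-0.10 ± 0.15), and the decapping enzyme gene Dcp2 (0.10 ± 0.10). Among 11 exosome genes they were those of Exosc4 (-0.09 ± 0.06) and Exosc7 (-0.08 ± 0.13). Each of these was within 2 standard errors of 0. The other regulators of stability (20 measured) were led by Zc3h12c, which encodes a Regnase-1 relative (0.43 ± 0.17, adjusted p = 1, blocked 0.0699), and Arid5a, which encodes a protein that stabilises cytokine mRNAs and counteracts Regnase-1 (0.24 ± 0.09, adjusted p = 1). In the p38-MK2 arm, which holds tristetraprolin in its phosphorylated, less active form, Dusp1 led with 0.51 ± 0.14, and the kinase gene Mapkapk2 followed with 0.12 ± 0.08 (adjusted p of 0.951 and 1).

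Dusp1 encodes the phosphatase that switches p38 off and so favours the active form of tristetraprolin. It stood at 11.80, 11.84 and 11.73 on knockdown arrays, 11.28, 11.91 and 11.35 on TNF-treated control arrays and 11.063, 10.998 and 10.963 on unstimulated arrays. As for Zfp36, TNF-treated control array 2 was the highest of its group. Against unstimulated cells the knockdown cells had more Dusp1 (0.78 ± 0.14, limma adjusted p = 0.0455, blocked 0.0115), the only one of the 73 genes called in the main fit of that comparison, against 1.12% of all genes. That call was lost when any 1 of the unstimulated arrays, TNF-treated control array 1 or 3, or knockdown array 1 or 3 was left out. The blocked fit added Zc3h12c (0.40, blocked adjusted p = 0.017) and the exosome nuclease gene Exosc10 (0.28, 0.0309), both higher, and Tob1 (-0.36, 0.0328), lower, which makes 4 of 73 against 5.34% of all genes. Without the arrays numbered 1 or 3 it called 0 of the 73, and without those numbered 2 it called 3. With the knockdown against TNF-treated controls the largest differences in each list were -0.21 for Tob1, 0.14 for Pan3, 0.20 for Patl1, 0.17 for Dcps, 0.22 for Exosc10, 0.15 for Exosc2, -0.22 for Arid5a, 0.11 for Zc3h12b, 0.27 for Dusp1 and -0.24 for Map2k6, none of them called in either fit.

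Among mRNAs that these proteins are known to remove, chemokine mRNAs had the largest rises called in the main fit after TNF. Of 23 measured, 6 were called higher and 0 lower in the main fit, against 0.137% of all genes, and 9 in the blocked fit, against 0.366%. The list holds well-known TNF-induced genes, so its direction was known when it was drawn up. The chemokine mRNAs Cxcl2 (2.92 ± 0.24), Ccl2 (2.33 ± 0.16), Ccl3 (1.42 ± 0.15) and Cxcl1 (1.10 ± 0.09) rose, as did Ier3 (0.94 ± 0.11), a regulator of cell survival, and Nfkbiz (0.91 ± 0.11), a nuclear NF-kB cofactor whose mRNA Regnase-1 cuts. Their limma adjusted p lay between 0.000891 and 0.0182. Without unstimulated array 1 or TNF-treated array 1, 3 mRNAs were called in place of 6. With the block, the cytokine mRNAs Il6 (1.81 ± 0.37) and Lif (2.17 ± 0.51) and the prostaglandin synthase mRNA Ptgs2 (1.40 ± 0.24) were added (blocked adjusted p of 0.00349, 0.00653 and 0.00866). Tnf, the best-known target of tristetraprolin, differed by 0.07. The median over the 23 mRNAs was 0.32.

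With the knockdown, 0 of the 23 target mRNAs were called in the main fit, against 0.137% of all genes in either direction. By unadjusted p, 0 were higher and 4 lower, against 8.43% of all genes in either direction. The blocked fit called 3 lower, against 2.33% of all genes. The inflammatory cytokine mRNA Il6 stood at 10.51, 10.39 and 9.87 on knockdown arrays, against 11.61, 11.54 and 10.50 on TNF-treated control arrays (difference -0.96 ± 0.37, limma adjusted p = 0.49, blocked 0.0178). Cxcl2, a neutrophil chemoattractant, stood at 8.75, 8.47 and 7.95 in the knockdown, against 9.54, 9.36 and 8.69 in controls (difference -0.81 ± 0.24, adjusted p = 0.324, blocked 0.0364). For both, array 3 was the lowest of both groups, and the groups overlapped although every pair was lower. Vegfa, an angiogenic growth factor, stood at 11.65, 11.52 and 11.41 in the knockdown, against 11.89, 11.91 and 11.77 in controls, with no overlap (difference -0.33 ± 0.08, adjusted p = 0.22, blocked 0.0172). Without the arrays numbered 1 or 3 the blocked fit called 0 of the 23, and without those numbered 2 it called 2. The median over the list was -0.02, and 10 of the 23 were above 0. The lower levels of these 3 mRNAs stood beside the higher Zfp36l1 level, and a relation between them was not tested.

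**Figure D4:**
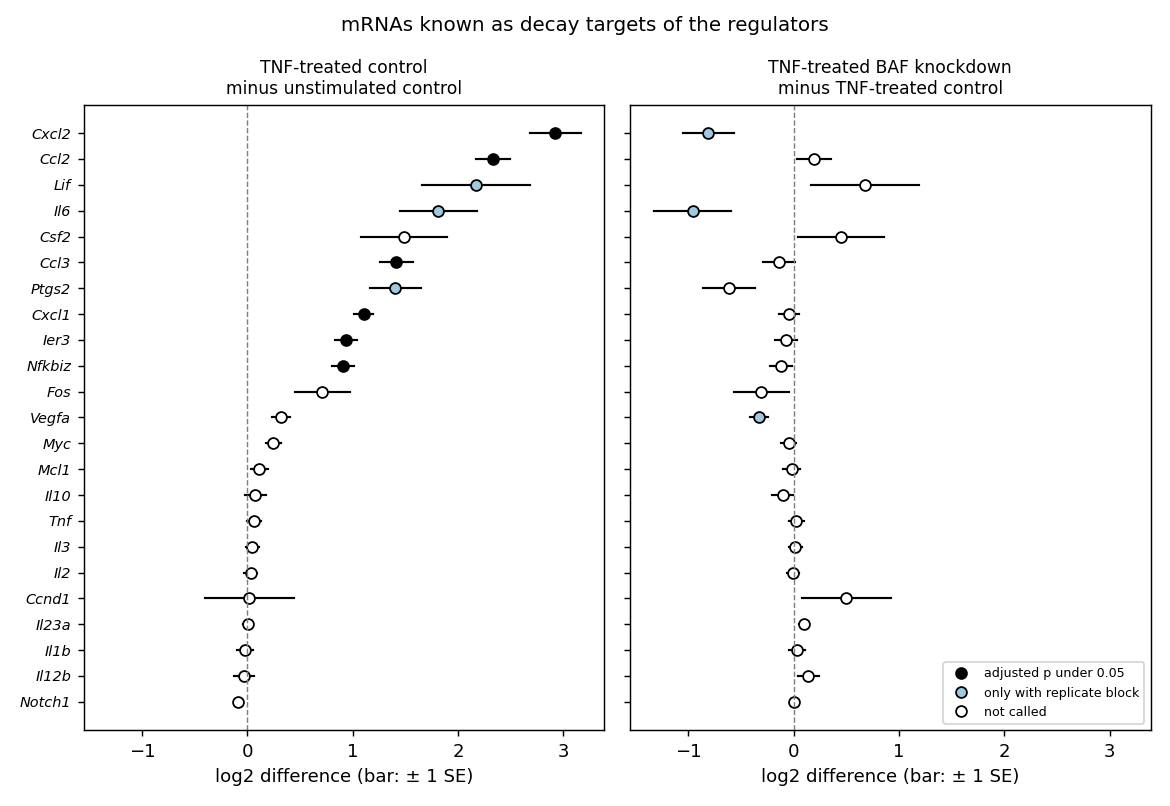
Fitted log2 difference (x axis) with bars that span 1 standard error either side, from 3 arrays in each group, of the 23 measured target mRNAs (y axis, ordered by the TNF difference), TNF-treated minus unstimulated control on the left and TNF-treated knockdown minus TNF-treated control on the right. After TNF 20 of the 23 lie above 0, up to 2.92 for Cxcl2. With the knockdown the points spread from -0.96 for Il6 to 0.68 for Lif.

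The genes whose levels ran most nearly in parallel with each regulator over the 9 arrays are given as a description. The arrays share 3 groups and 3 array numbers, so that any gene that follows TNF will correlate with any other. Zfp36l2 ran with Ccl20, a chemokine gene (Pearson r = 0.981), Birc3, an apoptosis inhibitor gene (0.975), and Atf3, a stress transcription factor gene (0.970). Zc3h12a ran with Stx11 (0.980), Csrnp1 (0.976) and the NF-kB subunit gene Rel (0.973). Btg2 ran with Nfkbiz (0.971) and the immediate early genes Egr1 (0.967) and Egr2 (0.965). Zfp36 ran with Dusp1 and Sim1 (0.947 each) and Ifitm5 (0.938). Dusp1, Sim1 and Ifitm5 differed by 0.51, 0.089 and 0.26 after TNF and by 0.27, 0.020 and 0.042 with the knockdown. The highest correlations over all genes and only 9 arrays can be high by selection alone.

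The closest genes to the remaining 2 regulators differed more with the knockdown than after TNF, as these regulators did themselves. Their choice by correlation over the same arrays favours such genes. Zfp36l1 ran with Baiap2 (0.947), Sh3bp5 (0.939) and Pced1b (0.935), which differed by 0.21 to 0.51 with the knockdown and by 0.0071 to 0.22 after TNF. Btg1 ran with Lnx2 (0.973), Epdr1 (0.971) and Cd74 (0.967), which differed by -0.81 to -0.18 with the knockdown and by 0.013 to 0.27 after TNF. Among the regulators themselves, Zfp36l2 ran with Zc3h12a and with Btg2 (0.917 each), while Btg1 correlated between -0.292 and 0.036 with the other 5.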

How the data were processed

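RNA from 9 cultures of 3T3 fibroblasts was hybridised to Affymetrix mouse Gene 1.0 ST arrays. The authors deposited RMA values on the log2 scale (background correction, quantile normalization, median polish over probes). The study's reporting summary names the affy package of Bioconductor for the array processing. Quantile normalization hides a shift common to all genes. Values lay between 3.36 and 14.61, with array medians of 7.77 to 7.83 over 27024 transcript clusters, and 0 arrays were identical. Precision is limited by the 3 arrays per group. The platform annotation gave 1 symbol for 21319 clusters, several for 1430 and none for 4275. For 930 genes with several clusters the brightest was kept, leaving 19698 genes.

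Group means were fitted to all 9 arrays together and compared two-sided in limma 3.58.1 (lmFit, eBayes, R 4.3.3), with Benjamini-Hochberg adjustment over all genes. The main fit was tested on simulated data without an effect of array number, and the blocked fit was not. A blocked fit added the array number. Deviations from group means correlated at 0.21 to 0.724 for equal numbers and at -0.566 to 0.0111 for unequal ones. Such deviations cancel out within each group, so the second range partly follows from the first. The methods place replicates on different days, and equal numbers were treated as pairs. The array titles do not tie a number to a day. The methods' t-test was an alternative, with limits of 0.35 (TNF) and 0.3 (BAF) on the difference.

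The 6 genes and all lists were chosen with earlier results of these data known. Named genes were the 6 regulators, the knockdown targets, per list those called in either fit or else the 2 with the largest difference, and the 3 best correlated genes per regulator. Listed genes without a measured value were not analysed here. Promoters came from RefSeq (GRCm38.p6), in which Zfp36l2 had no entry.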

Additional observations from a re-analysis of the deposited data

How the results depend on the processing

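Calls were sensitive to the fit, whereas centring on the array median, leaving out dim genes and an intensity trend left every count of calls within 1.5 times. The replicate block raised the number of called regulators to 2 after TNF, 1 with the knockdown and 5 in knockdown against unstimulated cells, against 1, 0 and 2 without it. It called 4 machinery genes in place of 1 in the last comparison and 3 target mRNAs in place of 0 with the knockdown. Array weights gave 4 regulators in place of 2 in the last comparison. With only the 2 groups compared in the fit, called regulators numbered 0 after TNF and 0 in knockdown against unstimulated cells, and target mRNAs 3 and 4 in place of 6 and 7. The methods' t-test called 0 after adjustment in all of these. At the methods' own thresholds 3 regulators and 10 target mRNAs were past the limits after TNF, against 0.543% of all genes. With the knockdown 1 regulator and 8 target mRNAs were past a difference of 0.3 in either direction, a limit without a p-value. Of all 19698 genes, 368 were higher and 645 lower past it. Of the 8 target mRNAs, Csf2, Lif and Ccnd1 were higher and Il6, Cxcl2, Ptgs2, Fos and Vegfa lower.

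Leaving out arrays, with or without the block, gave 0 to 2 called regulators after TNF, 0 with the knockdown, and 0 to 5 in knockdown against unstimulated cells. Called target mRNAs ranged over 0 to 10, 0 to 2 and 1 to 10 in the same comparisons, and called machinery genes over 0, 0 to 1 and 0 to 3. Regulators whose difference changed sign in a comparison were not called in that comparison in any fit. Leaving out 1 array at a time, Btg1 after TNF ran from -0.028 (without unstimulated array 3) to 0.089. With the knockdown, Zfp36 ran from -0.12 to 0.47 (highest without TNF-treated control array 2), Zc3h12a from -0.17 to 0.13 and Btg2 from -0.23 to 0.26. With the block and all arrays of number 1, 2 or 3 left out, Zfp36 was at -0.040, 0.37 and -0.068, Zc3h12a at 0.024, 0.031 and -0.18, and Btg2 at -0.064, 0.44 and -0.23. Each regulator had a single transcript cluster, so the choice of cluster gave no alternative. With 3 arrays per group, a missed threshold does not show that levels were alike.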
